A study of Homo sapiens with 2 samples.

Results

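The glucuronosyltransferases and sulfotransferases of HepG2 cells were compared between a culture with Padma 28 and its solvent control. Members are all genes in the probe annotation whose symbol begins with UGT1, UGT2, UGT3, UGT8, SULT1, SULT2, SULT4 or SULT6. They came to 28 of 21357 annotated genes, 18 of them UGT and 10 SULT genes, on 42 probe sets. HepG2, a human hepatocellular carcinoma line, was treated for 18 h with 218 μg/ml of the aqueous ethanolic extract of the herbal remedy Padma 28 or with 0.9% ethanol (EtOH). The cells of 3 cultures per treatment were pooled before RNA isolation and 1 Affymetrix Human Genome U133 Plus 2.0 array was hybridised for each, so no spread between cultures and no test can be given. Every value is a log2 expression value from GCRMA, a method that corrects background by probe sequence and normalizes by quantiles, and every difference is Padma 28 minus EtOH on that log2 scale.

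Conjugation by these enzymes makes drugs, steroids, bile acids and bilirubin more soluble. UGT enzymes sit in the endoplasmic reticulum and mostly transfer glucuronic acid from UDP-glucuronic acid, whereas SULT enzymes work in the cytosol and transfer a sulfonate group from PAPS, the activated form of sulfate. The UGT1A genes each start at a promoter and a leading exon of their own and are spliced to the same last exons, while the UGT2 genes are separate genes in a cluster. Hepatocytes carry many of both families, and UGT1A genes are known targets of the aryl hydrocarbon receptor (AhR) and of Nrf2.

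With Padma 28, the transcripts of UGT1A, SULT1A and SULT1C2 were higher and those of UGT2A3, UGT2B4 and UGT2B28 were lower than with EtOH. SULT1E1 was above background with EtOH only, and by little. Of the UGT1A probe sets above background, 5 of 5 were higher, by 0.20 to 0.97, and of the SULT1A probe sets 5 of 6 were, by 0.53 to 0.86. Several of these probe sets measure the same transcripts, so the counts are not counts of separate genes. For comparison, 58.3% of all genes above background were higher by any amount, counting 1 probe set per gene. Of all probe sets above background, 50.4% to 56.7% were higher, depending on the type of probe set. The 3 UGT2 genes above background were lower by 0.30 to 0.53. SULT2A1 and SULT2B1 differed by -0.17 and -0.03. The remaining members were at background on both arrays.

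Many probe sets see more than 1 member. Of the 42 probe sets, 30 belong to a single member gene and 12 are shared, 7 by UGT1A genes, 4 by SULT1A3 and SULT1A4 and 1 by UGT2A1 and UGT2A2. A gene with probe sets of its own was represented by the brightest, which gave 17 genes, and each shared probe set was counted once, which gave 29 measured units. The other 11 genes have shared probe sets only. A value counted as above background when it lay at least 2 log2 units over the most frequent value of its array, which put the limits at 4.25 with EtOH and 4.35 with Padma 28. By this limit 16 units were above background on both arrays, 1 on a single array and 12 on neither.

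No unit was more than 2-fold higher, and 1 of 29, SULT1E1, had a log2 difference past 2-fold on the lower side. Its value with Padma 28 was below background, so that at least 1.03-fold lower is all that can be said of it, and 5 of the 12 processing alternatives left no unit past 2-fold lower. Among all 19775 genes with a probe set of their own, represented by the brightest, 0.875% lay past 2-fold higher and 0.384% past 2-fold lower. This set of genes, also used below, takes in no shared probe set, unlike the 29 units. At the smaller limit of 1.5-fold, 6 of the 16 units above background on both arrays were higher and none was lower, against 6.05% and 2.74% of the 10186 genes above background. Counted as probe sets, 7 of 19 were higher by that much and 0 were lower, against 5.55% and 3.84% of 21502 probe sets above background. The 6 units are not 6 separate genes, since 2 are shared UGT1A and 2 shared SULT1A3 and SULT1A4 probe sets, and the others are SULT1A1 and SULT1C2. The median difference of the 16 units was 0.51, against 0.06 for all genes above background, but 9 of the 16 are shared probe sets that measure UGT1A or SULT1A3 and SULT1A4 repeatedly. The 7 genes with probe sets of their own had a median of -0.17, with 5 of them lower and 2 higher, so the direction of the median turns with the shared probe sets left out. Over all 29 units it was -0.02, as it was over all 19775 genes. In RNA from whole cultures, fewer cells of a type and less RNA per cell cannot be told apart.

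**Figure D1:**
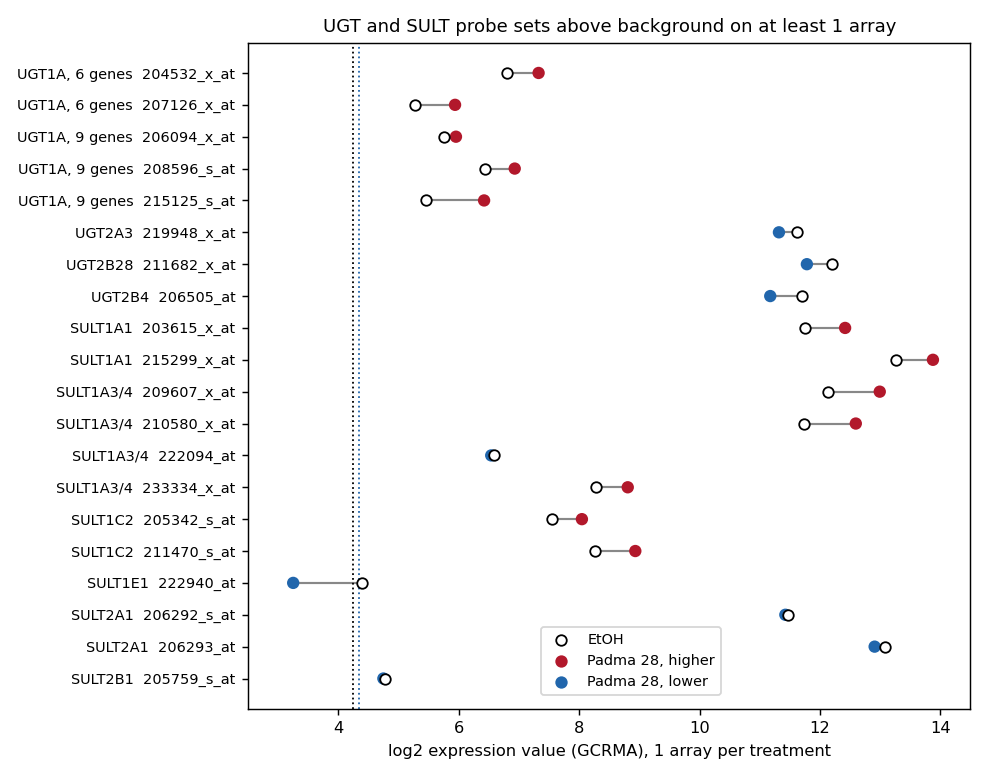
Log2 expression value of the 20 UGT and SULT probe sets above background on at least 1 array, with EtOH (open circles) and with Padma 28 (filled, red where higher and blue where lower), 1 array per treatment. Dotted lines mark the background limits of 4.25 (EtOH, black) and 4.35 (Padma 28, blue); the UGT1A probe sets all lie to the right of their EtOH value, the UGT2 ones to the left, and SULT1E1 is the only one to cross the limits.

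The UGT1A transcripts were higher on every probe set that detected them. Probe set 215125_s_at, annotated to 9 UGT1A genes, went from 5.45 with EtOH to 6.42 with Padma 28, a difference of 0.97 or 1.95-fold. Probe set 207126_x_at, annotated to 6 of them, went from 5.27 to 5.94, which is 1.59-fold. Among the 10186 genes above background, 1.39% were as high as the former and 4.24% as high as the latter.

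Smaller differences were seen on the other 3 UGT1A probe sets. On 204532_x_at the value was 6.80 with EtOH and 7.33 with Padma 28, on 208596_s_at it was 6.44 and 6.93, and on 206094_x_at it was 5.76 and 5.95. The differences were 0.53, 0.49 and 0.20. Probe sets 208596_s_at and 206094_x_at carry the same 9 gene names as 215125_s_at, on which the difference was 0.97. As a yardstick, in 4912 genes with a pair of probe sets above background, the differences of the pair lay a median of 0.14 apart, and 0.46 apart at percentile 90. The values of the 3 probe sets with the same 9 names span 0.77.

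Which of the UGT1A transcripts was higher cannot be read from these probe sets. In RefSeq GRCh38.p14 all 9 UGT1A members end at the same position, since they share their last exons. UGT1A1, the enzyme that conjugates bilirubin, and UGT1A6, which acts on small planar phenols, have 1 probe set each of their own, and both were at background. The UGT1A1 probe set had values of 2.07 and 2.05, the UGT1A6 probe set of 1.93 and 1.91. A single probe set at background does not show that a transcript was absent. SULT1A1, for example, had a probe set at 2.38 with EtOH beside another at 13.26. Probe sets 221304_at and 221305_s_at, annotated to UGT1A1, UGT1A3, UGT1A5, UGT1A8 and UGT1A9, were at background too, with 2.09 and 2.32 for EtOH. All 5 UGT1A probe sets above background are of the _x_at or _s_at types, whose probes match several transcripts.

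Promoters of UGT1A genes are shown because each gene of this locus starts at a promoter of its own. The sequences run from base -100 to base -21 before the transcription start, 5′ to 3′ on the gene's strand, and come from RefSeq on GRCh38.p14. Capitals mark matches, on either strand, to GCGTG, which reads CACGC on the other strand, the core of the xenobiotic response element that AhR binds, or to TGACNNNGC, the core of the antioxidant response element. The genes UGT1A7, UGT1A8 and UGT1A9 and start 2 of UGT1A6 hold a match in the window, and UGT1A3 and UGT1A4 are shown for comparison.
UGT1A3 (chr2:233728942-233729021, + strand): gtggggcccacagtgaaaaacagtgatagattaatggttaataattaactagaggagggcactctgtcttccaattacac
UGT1A4 (chr2:233718636-233718715, + strand): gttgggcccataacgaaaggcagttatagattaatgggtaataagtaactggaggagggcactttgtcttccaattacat
UGT1A6 start 2 (chr2:233692790-233692869, + strand): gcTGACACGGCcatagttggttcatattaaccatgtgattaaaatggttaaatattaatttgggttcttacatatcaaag
UGT1A7 (chr2:233681801-233681880, + strand): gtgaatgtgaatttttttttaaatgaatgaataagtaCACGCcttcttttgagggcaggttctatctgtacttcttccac
UGT1A8 (chr2:233617533-233617612, + strand): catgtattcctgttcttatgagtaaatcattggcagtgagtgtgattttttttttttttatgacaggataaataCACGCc
UGT1A9 (chr2:233671798-233671877, + strand): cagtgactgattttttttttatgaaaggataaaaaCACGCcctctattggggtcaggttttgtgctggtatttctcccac

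In these windows CACGC began at -63 in UGT1A7, at -65 in UGT1A9 and at -26 in UGT1A8. The windows of UGT1A3 and UGT1A4, identical at 68 of 80 bases, held neither motif, while outside the window GCGTG began at 46 after the start in both and at -121 in UGT1A4. Start 2 of UGT1A6 held an antioxidant response element core at -98, and start 1 of UGT1A6 a GCGTG at -200.

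Over the 300 bases from 250 before to 50 after the start, 6 of 9 UGT1A promoters held GCGTG and 2 TGACNNNGC. Of all 35116 promoters in the table, 36.5% held GCGTG and 13.3% TGACNNNGC. Of the 28 members, 22 had at least 1 promoter there, 26 promoters in all, of which 10 held GCGTG and 3 TGACNNNGC. No match of one motif overlapped a match of another in these promoters. The letters were counted as a description of the sequence, and the arrays do not show which promoter was in use.

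**Figure D2:**
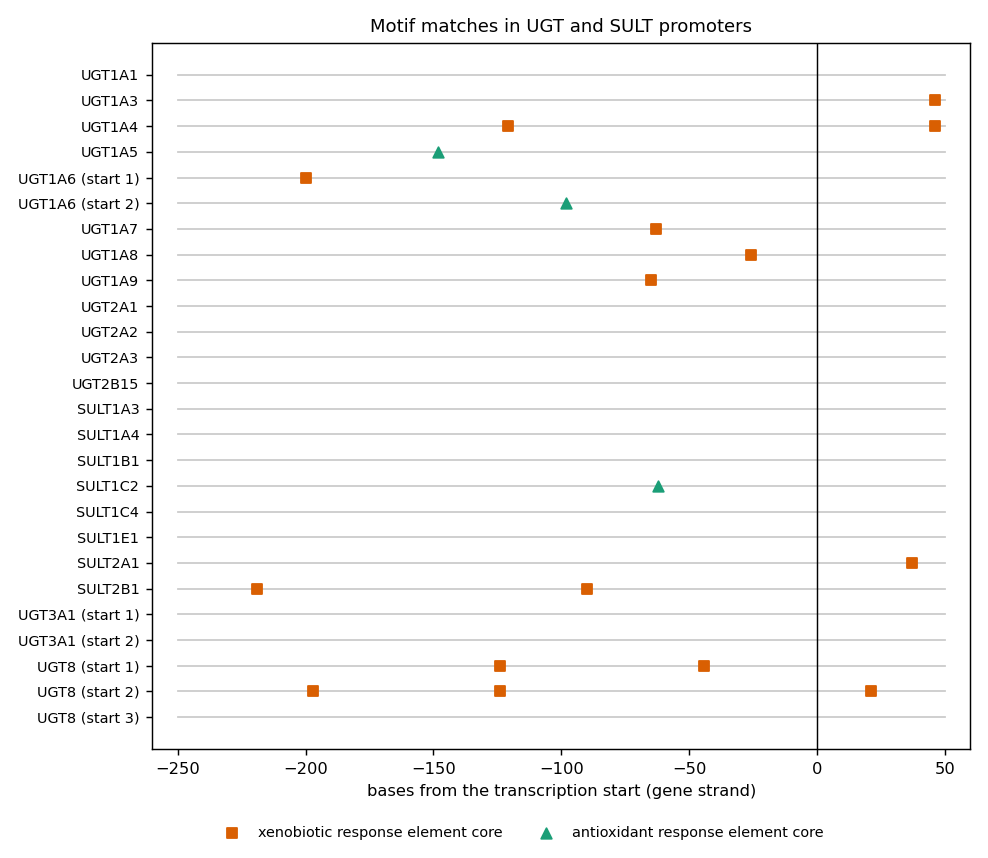
Positions of 2 short motifs in the 26 promoters of the UGT and SULT members, as bases from the transcription start (horizontal axis, 0 is the start) on the gene's strand; grey lines are the 300 bases searched on both strands, and each symbol is the leading base of a match. Matches to GCGTG lie at -63 and -65 in UGT1A7 and UGT1A9, and the 4 UGT2 promoters hold no match. UGT2B4 and UGT2B28 have no promoter here.

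Of the UGT2 genes named in the probe annotation, those detected were all lower with Padma 28. UGT2B7, UGT2B10 and UGT2B11 are not named there, so the UGT2 family was covered only in part. UGT2B4, which conjugates bile acids and steroids, went from 11.71 to 11.17, a difference of -0.53 or 1.45-fold lower. UGT2B28, an enzyme of androgen conjugation, went from 12.20 to 11.78, and UGT2A3, which acts on bile acids, from 11.62 to 11.32. Their differences were -0.42 and -0.30. Of the genes above background, 3.37% were as low as UGT2B4, 5.72% as low as UGT2B28 and 10.2% as low as UGT2A3. The probe sets of UGT2B28 and UGT2A3 are of the _x_at type, so related UGT2 transcripts may add to them, while that of UGT2B4 (206505_at) is not.

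The androgen-conjugating UGT2B15 and UGT2B17 were at background on both arrays. The brightest UGT2B15 probe set had 2.47 with EtOH and 2.43 with Padma 28, and the UGT2B17 probe set 2.80 and 2.76. The probe set shared by UGT2A1 and UGT2A2, glucuronosyltransferases known from the nasal mucosa, had 3.16 and 3.07. UGT3A1, which uses UDP-N-acetylglucosamine, and UGT8, which makes galactosylceramide for myelin, were at background on each of their 5 probe sets.

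Markers of the hepatocyte lineage were also lower with Padma 28. Of 12 listed markers 10 had a probe set of their own, and 10 of these 10 were lower, with a median of -0.20. Over all genes above background 41.7% were lower. The markers had values from 11.32 to 16.62 with EtOH and from 10.52 to 16.52 with Padma 28, among them albumin (ALB) at -0.10, alpha-fetoprotein (AFP) at -0.23 and the transcription factor FOXA2 at -0.80. None was at background, while 8 of 10 markers of other cell types were at background on both arrays. The part of the marker shift in the UGT2 values was not tested.

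SULT1E1, the estrogen sulfotransferase, was the one member above background on a single array. Its brighter probe set went from 4.39 with EtOH, just above the limit, to 3.25 with Padma 28, below it. The difference was -1.14, but against the background limit of the Padma 28 array the transcript was at least 1.03-fold lower. The paper lists SULT1E1 as lower past 2-fold, with a somewhat larger difference, from the same arrays. The other SULT1E1 probe set was below background on both arrays, at 3.11 and 2.63. With 16 or 64 added to both linear values, which damps low signals, the difference was -0.53 or -0.21, and with the median of both probe sets it was -0.81.

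The UGT2 genes and 2 of the sulfotransferases are neighbours. UGT2B17, UGT2B15, UGT2A3, UGT2B28, UGT2B4, SULT1B1 and SULT1E1 follow each other on chromosome 4 among the genes measured. The 3 of them above background on both arrays, UGT2A3, UGT2B28 and UGT2B4, were lower. The other units above background that were lower, SULT2A1, SULT2B1 and the SULT1A3 and SULT1A4 probe set 222094_at, differed by -0.17 to -0.03 and lie on other chromosomes. The nearest genes above background outside the cluster were YTHDC1, a reader of methylated RNA, at 0.34, and ODAM, a protein known from enamel formation, at -0.06. The promoters of UGT2A3 and SULT1E1 are shown as 2 from this cluster whose genes were above background with EtOH.
UGT2A3 (chr4:68951825-68951904, - strand): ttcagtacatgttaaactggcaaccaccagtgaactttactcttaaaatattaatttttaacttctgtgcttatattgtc
SULT1E1 (chr4:69860166-69860245, - strand): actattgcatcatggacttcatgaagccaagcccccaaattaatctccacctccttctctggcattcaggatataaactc
Neither motif lies in these windows or in the full 300 bases of both promoters. None of the 4 UGT2 promoters in the table, those of UGT2A1, UGT2A2, UGT2A3 and UGT2B15, held GCGTG or TGACNNNGC. UGT2B4 and UGT2B28 have no promoter there, so of the UGT2 genes that were lower only UGT2A3 could be searched.

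**Figure D3:**
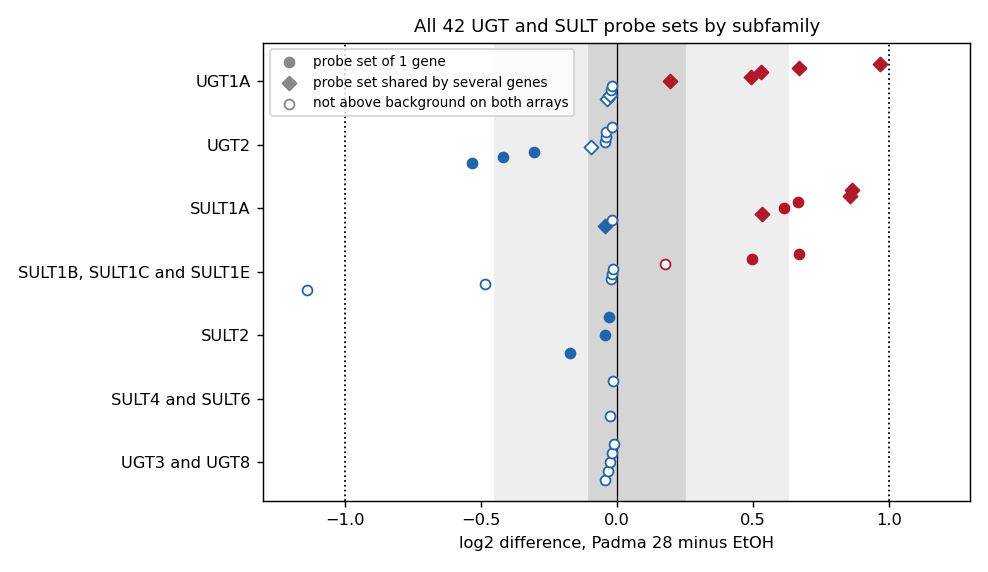
Log2 difference, Padma 28 minus EtOH, of all 42 UGT and SULT probe sets by subfamily, from 1 array per treatment; circles are probe sets of 1 gene, diamonds are shared by several genes, and open symbols were not above background on both arrays. Dark and light grey bands hold the middle 50% (-0.10 to 0.25) and 90% (-0.45 to 0.63) of the 10186 genes above background, and dotted lines mark 2-fold; filled UGT1A and SULT1A symbols lie to the right with a single exception, filled UGT2 symbols to the left, and SULT2 symbols near 0.

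Most SULT1A probe sets were higher with Padma 28, with a median difference of 0.64 over the 6 above background. SULT1A1, the main phenol sulfotransferase of liver, went from 13.26 with EtOH to 13.88 with Padma 28 on its brightest probe set, a difference of 0.61 or 1.53-fold. A second SULT1A1 probe set went from 11.75 to 12.42, a difference of 0.66, and its remaining probe set was at background, at 2.38 and 2.37. Of the genes above background, 5.32% and 4.33% were as high as these.

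SULT1A3 and SULT1A4, a duplicated gene pair whose enzyme sulfonates dopamine and other catecholamines, share 4 probe sets. Probe set 209607_x_at went from 12.13 with EtOH to 12.99 with Padma 28, which is 1.82-fold, and 210580_x_at from 11.74 to 12.60, which is 1.81-fold. Of the genes above background, 1.99% and 2.11% were as high. Probe set 233334_x_at went from 8.27 to 8.81, a difference of 0.53, and 222094_at from 6.58 to 6.54, a difference of -0.04. The last 2 are also annotated to the neighbouring SLX1A and SLX1B genes, and 222094_at is the only one of the 4 that is not of the _x_at type.

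The 2 copies cannot be told apart at all on this array. Their promoters were identical at 300 of 300 bases, and the window is shown for SULT1A3 because it stands for both.
SULT1A3 (chr16:30199155-30199234, + strand): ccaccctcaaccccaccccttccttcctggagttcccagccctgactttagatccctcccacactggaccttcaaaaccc
Neither motif was found in it. All 5 SULT1A probe sets that were higher are of the _x_at type, and SULT1A1 and SULT1A3 are close paralogs, so a difference of one can appear on the probe sets of the other.

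SULT1C2, a sulfotransferase of the fetal liver and other tissues that acts on phenols, was higher on both probe sets that detected it. The values were 8.26 with EtOH and 8.93 with Padma 28 on 211470_s_at, a difference of 0.67 or 1.59-fold, and 7.55 and 8.05 on 205342_s_at, a difference of 0.50. Its other 2 probe sets were at background, at 2.42 and 1.99 with EtOH. The SULT1C2 promoter window is shown because it is the only one of the 8 SULT promoters with an antioxidant response element core, on the opposite strand from -62. This share of 12.5% is near the 13.3% of all promoters in the table, and SULT1A1 has no promoter there.
SULT1C2 (chr2:108288795-108288874, + strand): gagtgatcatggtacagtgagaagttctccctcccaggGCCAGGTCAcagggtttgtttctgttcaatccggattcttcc
SULT1C4, a related gene, had 3.80 and 3.97, and SULT1B1, which acts on thyroid hormones, 2.18 and 2.16, all at background.

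The hydroxysteroid sulfotransferases stayed close to their control values. SULT2A1, which sulfonates dehydroepiandrosterone and bile acids in liver, went from 13.08 to 12.91 on its brighter probe set and from 11.47 to 11.42 on the other. SULT2B1, which acts on cholesterol and pregnenolone, was near the limit, at 4.78 and 4.75. SULT4A1, a gene of the brain without a settled substrate, was at background on both of its probe sets.

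Members at background give no information on a change. Besides SULT1E1 and SULT1C4, 20 member probe sets were below the limit on both arrays, and their differences lay between -0.10 and -0.01. The median of the 9414 genes below background on both arrays was -0.03. The small negative values of these members therefore lie where all dim genes do.

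Among the member probe sets, the direction differed between types of probe set. Of 10 member probe sets of the _x_at type above background on both arrays 8 were higher, and of 6 of the _s_at type 4 were. Of 3 of other types (UGT2B4, SULT2A1 and the SULT1A3 and SULT1A4 probe set 222094_at) none was. The 8 are 5 SULT1A and 3 UGT1A probe sets, and the 4 are 2 UGT1A and 2 SULT1C2 probe sets. They measure a few genes repeatedly, so type and subfamily cannot be told apart here. Over the whole array 50.4% of 2176 _x_at, 56.7% of 7020 _s_at and 51.3% of 12306 other probe sets above background were higher. More than 1.5-fold higher were 3.72%, 4.99% and 6.20% of them. The part of the probe set type in the UGT1A and SULT1A values was not tested.

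The genes listed for the supply of UDP-glucuronic acid showed 1 difference past 1.5-fold. The list is broad and takes in hexokinases and transporters of nucleotide sugars, not only genes specific to this donor. UGDH, which oxidises UDP-glucose to UDP-glucuronic acid, went from 11.77 with EtOH to 12.60 with Padma 28, 1.79-fold higher. The other 10 of the 11 genes measured were within 1.5-fold, with HK2, a hexokinase, at -0.52, and SLC35A3, a nucleotide sugar transporter, at -0.56. UGP2, which makes UDP-glucose, was at -0.01, and SLC35D1, which carries UDP-glucuronic acid into the endoplasmic reticulum, at 0.16. The median of the list was -0.01. Of the genes listed for the supply of PAPS, 11 of 12 measured were above background, none passed 1.5-fold and the median was 0.02. PAPSS1, a synthetase of PAPS, was at -0.09, and PAPSS2, another one, was at background.

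Most genes listed for the hydrolysis of conjugates differed little. The list is broad and takes in lysosomal sulfatases and the sulfatase-modifying factors SUMF1 and SUMF2. Of 8 genes above background on both arrays, ARSK, a lysosomal sulfatase, was the only one past 1.5-fold, going from 8.16 to 7.33. GUSB, the beta-glucuronidase, was at 0.17, and STS, the steroid sulfatase, was at background. Of the other conjugating enzymes, GNMT, a glycine methyltransferase, was 1.56-fold higher and BAAT, which conjugates bile acids with amino acids, 1.51-fold lower among 6 above background. Over all genes above background, 6.05% were higher and 2.74% lower past 1.5-fold.

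Carriers of conjugates across the cell membrane held differences past 2-fold. Of 11 carriers above background on both arrays, 3 were more than 2-fold higher and 1 lower, against 1.28% and 0.609% of all genes above background. SLC51B, a subunit of the exporter of bile acids and steroid conjugates, went from 6.67 with EtOH to 8.09 with Padma 28, 2.68-fold higher. Its partner SLC51A was at 0.38. ABCC3 and ABCC4, export pumps of glucuronides and sulfates, had differences of 1.84 and 1.13, and ABCG2, a pump of the apical membrane, of 0.86. These are values of the brightest probe set of each gene, and the paper reports a larger difference for ABCC4 from the same arrays. SLCO1B3, an uptake carrier, went from 10.25 to 8.91. The median of the 11 was 0.43.

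Of the regulators known to act on UGT and SULT genes, 11 were above background and none passed 2-fold on its brightest probe set. NR1H3, the oxysterol receptor LXR alpha, was 1.83-fold higher. FOXA2 and AHR were 1.74-fold and 1.57-fold lower. NFE2L2, which encodes Nrf2, was at -0.13 and its inhibitor KEAP1 at 0.44. NR1I3, the receptor CAR, was at background.

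**Figure D4:**
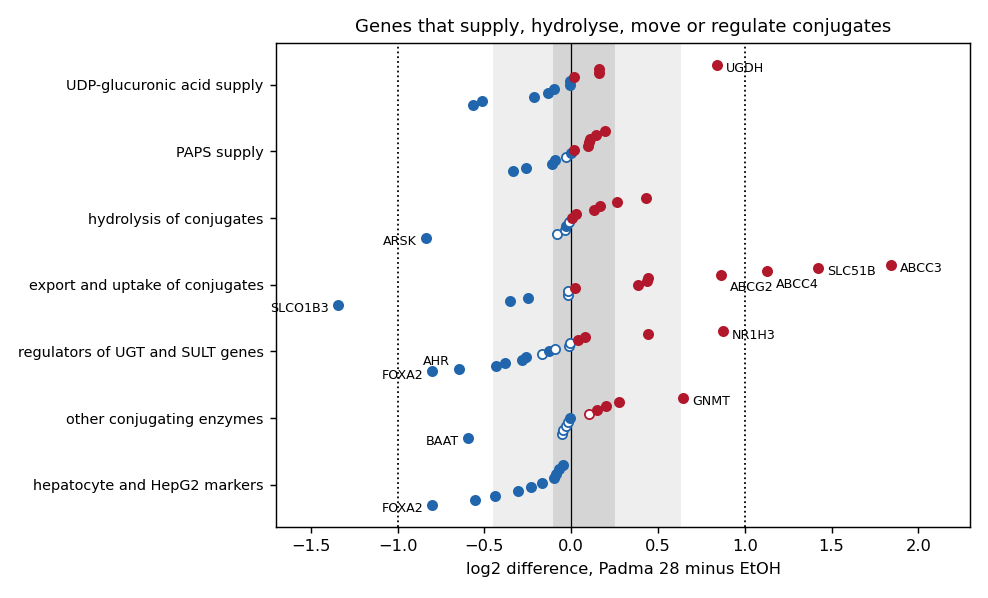
Padma 28 minus EtOH on the log2 scale (horizontal axis) for genes in 6 lists around conjugation and for hepatocyte markers, from 1 array per treatment; each point is a gene, open points were not above background on both arrays, names are given past 1.5-fold, dotted lines mark 2-fold and the grey bands are those of all genes above background (middle 50% and 90%). UGDH stands apart at 0.84 in its list, the carriers ABCC3, SLC51B and ABCC4 lie past 2-fold, and all hepatocyte markers lie left of 0.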

How the data were processed

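Each treatment gave 1 array (Affymetrix Human Genome U133 Plus 2.0) from the RNA of 3 pooled HepG2 cultures. The authors ran GCRMA on the scanner intensities and deposited the log2 value of each of 54675 probe sets. GCRMA 2.28.0 and R 2.15.1 are the versions in the submitters' processing notes, and the unspecific filter mentioned in the methods was not applied.

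The log2 difference, Padma 28 minus EtOH, was taken per probe set. Genes were named from the platform annotation, and all 28 member symbols matched RefSeq GRCh38.p14. Background was the most frequent value in bins of 0.1 (2.25 and 2.35) plus 2. Every member above it on at least 1 array was named, as were genes of 6 related lists past 1.5-fold; further list genes were named after their values were seen. Members and lists were chosen with earlier results of these data known. With 1 array per treatment there was no test, and the number of arrays limits the precision.

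Motifs were counted in RefSeq promoters. The steps were tested on simulated data with pandas 2.3.3, numpy 2.4.6, statsmodels 0.14.6 and matplotlib 3.10.9 under Python 3.11.15. The 12 alternatives were another choice among a gene's probe sets (its median or its most different one), added linear values, centring, loess (span 0.3), repeated quantile normalization, and other filters and probe sets.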

Additional observations from a re-analysis of the deposited data

How the results depend on the processing

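No unit was more than 2-fold higher under any of the 12 alternatives. The 1 unit with a difference past 2-fold lower, SULT1E1, was lost (0 units) with the median of a gene's probe sets, with 16 or 64 added to both linear values, and with only units above background on both arrays, at a limit of 2 or 3 log2 units; the median takes in its dimmer probe set, an added value shrinks the differences of low signals, and the filters leave it out. The median of all measured members, -0.02, was 0.51 and 0.53 with these 2 filters, that of the UGT members, -0.02, was 0.35 with each, and that of the SULT members, 0.08, was 0.57 and 0.61, because the filters leave out the dim units. The SULT median turned to -0.02 with the shared probe sets left out, with the _x_at and _s_at types left out, and with probe sets in place of genes, while centring, loess and repeated quantile normalization turned the median of all members and that of the UGT members above 0, to at most 0.0033. Of 119 values of the 17 named units under the alternatives, 109 lay within 0.14 of the reported value, 10 moved by more and 0 changed sign. Part of this was fixed in advance. Another choice among probe sets cannot move a shared probe set or a gene with a single one, and an added linear value cannot change a sign. The widest ranges were -1.14 to -0.21 for SULT1E1, 0.47 to 0.99 for the UGT1A probe set 215125_s_at, 0.29 to 0.70 for 207126_x_at and 0.24 to 0.69 for SULT1C2. Centring, loess or repeated quantile normalization moved no named unit by more than 0.067. The median of all probe set differences was -0.02. No paired analysis was possible because each treatment has 1 array. Signal near background limits what can be said of the 12 units below the limit on both arrays.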
